A study of Mus musculus with 8 samples.

Results

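The genes described here are 35 genes of red cell formation and heme synthesis, measured in lumbar intervertebral discs of naive mice and of mice with proteoglycan-induced spondylitis. A gene was measured by the Affymetrix probe sets whose annotation names that gene alone. By this rule 33 of the 35 genes were measured, by 57 probe sets, among 18193 genes in all. Epb41, which encodes protein 4.1 of the red cell skeleton, and Ahsp, which encodes the chaperone of alpha globin, were named alone by no probe set, so their expression was not analysed here.

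Both groups were female BALB/c mice, and RNA was taken from discs L1 to L6 of the lumbar spine, 6 discs being pooled per sample. The 5 immunized samples came from mice given cartilage proteoglycan (100 µg of protein) with DDA (dimethyldioctadecyl-ammonium bromide, 2 mg), an adjuvant, on days 0, 21 and 42. The 3 naive samples came from age-matched mice with no immunization named. Naive replicate 3 and immunized replicate 1 carry joined sample numbers in their descriptions, and no source used here says whether several mice were joined, so p-values measure the spread between these samples. On the second principal component of all genes (19.7% of the variance) naive replicate 1 stood apart from the other naive samples.

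Heme is made in a chain of enzymes that begins and ends in the mitochondrion, and erythroid cells run this chain through their own first enzyme, ALAS2. Erythroblasts mature in the bone marrow under the hormone erythropoietin and the transcription factors GATA1, KLF1 and TAL1, and fill with hemoglobin while they build a spectrin skeleton under the cell membrane. A disc is itself poor in blood vessels and lies between vertebral bodies that hold red marrow.

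Several of these genes carry the GATA motif, the letters to which GATA1 binds, close to their start. Windows of the 250 bases before the annotated start were read from RefSeq (build GRCm38.p6) for 27 of the 35 genes, 32 windows in all. The letters GATAA stood on either strand in 15 of the 32 windows (46.9%), against 22.6% of all 32851 windows of the same length. They stood in 6 of 7 windows of red cell surface proteins and in 1 of 7 of the membrane skeleton. The surface group also holds Epor, the receptor through which erythropoietin acts on erythroid precursors. A KLF type motif, CCNCNCCCN on either strand, stood in 59.4% of the members' windows and in 45.8% of all windows. A match describes letters only and no binding was measured. Of the windows with GATAA, 4 are shown as examples, those of the first erythroid heme enzyme (Alas2), a transcription factor (Klf1) and a surface protein (Rhag), and that of Uros because only 1 of its 2 windows holds the motif. The windows are chrX:150547167-150547416 (Alas2, plus strand), chr8:84901732-84901981 (Klf1, plus strand), chr17:40810899-40811148 (Rhag, plus strand) and chr7:133702501-133702750 (Uros, minus strand). Each is written 5′ to 3′ along the gene, and capitals mark the motif, which reads TTATC because GATAA lies on the other strand.
Alas2: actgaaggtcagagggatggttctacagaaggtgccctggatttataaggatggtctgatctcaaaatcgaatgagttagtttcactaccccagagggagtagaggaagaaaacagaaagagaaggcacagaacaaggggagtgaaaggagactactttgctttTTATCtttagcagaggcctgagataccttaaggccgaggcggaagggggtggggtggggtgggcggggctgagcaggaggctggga
Klf1: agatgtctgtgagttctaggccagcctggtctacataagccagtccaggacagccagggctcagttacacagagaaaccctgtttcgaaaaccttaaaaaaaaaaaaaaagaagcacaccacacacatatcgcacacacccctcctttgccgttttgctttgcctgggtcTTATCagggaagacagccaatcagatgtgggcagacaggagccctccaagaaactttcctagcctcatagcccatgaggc
Rhag: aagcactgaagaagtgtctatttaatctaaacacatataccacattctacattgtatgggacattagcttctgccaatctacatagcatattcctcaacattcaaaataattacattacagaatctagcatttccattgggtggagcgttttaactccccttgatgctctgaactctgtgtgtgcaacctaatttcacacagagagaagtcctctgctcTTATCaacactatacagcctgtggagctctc
Uros: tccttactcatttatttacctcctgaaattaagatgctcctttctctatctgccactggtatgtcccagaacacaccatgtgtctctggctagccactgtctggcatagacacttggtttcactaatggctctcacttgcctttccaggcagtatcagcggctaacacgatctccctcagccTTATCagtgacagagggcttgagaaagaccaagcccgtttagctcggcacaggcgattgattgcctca
Counted back from the start, the motif began at position -86 in Alas2, -80 in Klf1, -31 in Rhag and -68 in Uros. The other window of Uros, whose product UROS closes the ring of the heme precursor, held no GATAA.

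Expression of most of these genes differed between single samples much more than between the groups. Each probe set's value is a log2 difference from its middle value among the 8 arrays, so 1 is a doubling. A gene's value is the mean of its probe sets. For the 13 genes with several probe sets, 0 is therefore not always the gene's own middle value. In immunized replicate 3 all 33 genes lay above 0, 31 lay above it in immunized replicate 1, 30 in replicate 5 of the same group and 28 in naive replicate 1. By contrast, naive replicates 2 and 3 each had 3 genes above 0, and immunized replicates 2 and 4 each had 1. Over all genes this share lay between 41.8% and 58.0% in every sample. The median over the 33 genes was 0.24, -0.23 and -0.17 in naive replicates 1 to 3 and 0.20, -0.31, 0.78, -0.22 and 0.32 in immunized replicates 1 to 5. Each group thus held samples with high and with low values, and the groups overlapped. Immunized replicate 3 was the highest of the 8 samples for 29 of the 33 genes, as it was for 16.0% of all genes. The lowest sample was naive replicate 2 for 12 genes and immunized replicate 2 for another 12. In bulk tissue, fewer cells of a type and less RNA per cell cannot be told apart.

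**Figure D1:**
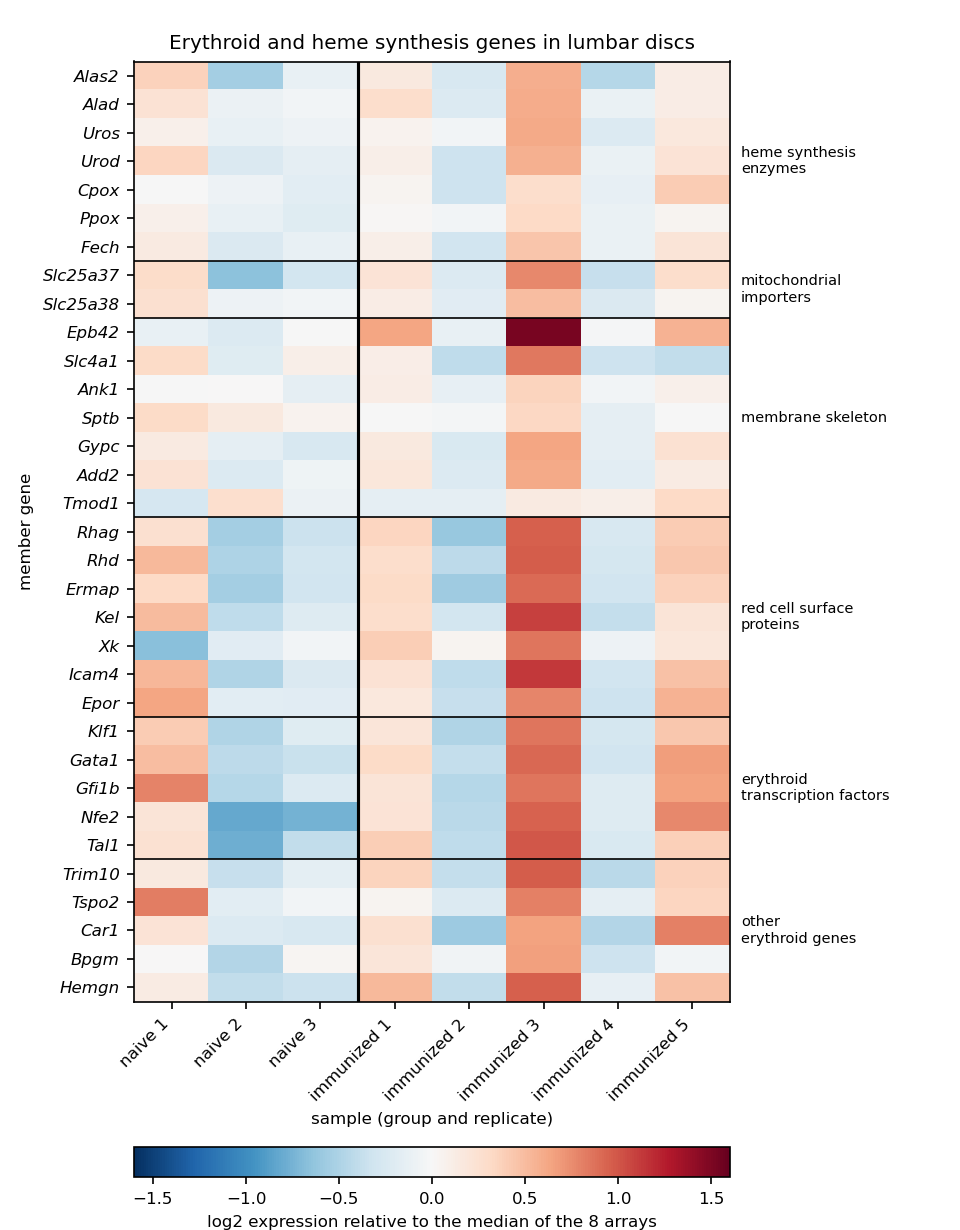
Log2 expression of the 33 measured genes (rows, grouped by role) in each of the 8 samples (columns, naive left of the black line), as colour. Probe set values are relative to their median over the 8 arrays and were averaged by gene. All 33 genes are above 0 in immunized replicate 3, and nearly all are below 0 in naive replicates 2 and 3 and immunized replicates 2 and 4.

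In the comparison of immunized with naive discs, which asks which genes differ in spondylitis, no erythroid or heme synthesis gene passed the test. Of the 33 genes 0 were higher and 0 lower in limma (threshold 0.05 after adjustment across the whole table), while 4.46% of all genes were called higher, 4.68% lower and 9.14% in either direction. Before adjustment, 1 gene, Xk, was higher at p under 0.05 and 0 lower, against 12.9% and 18.2% of all genes. The groups overlapped in all 33 genes, whereas 9.39% of all genes lay higher in every immunized sample and 14% lower, 23.4% together. The differences were mostly above 0, in 30 of 33 genes, against 43.9% of all genes. Their median was 0.21, beside -0.04 over all genes, and they ranged from -0.14 for Sptb to 0.72 for Nfe2. The genes vary together from sample to sample and are not independent of each other. For 23 of the 33 genes the 95% interval of the difference lay within -1 and 1.

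The size of this shift moved with single samples. The median difference of the 33 genes was 0.36, 0.10 and 0.13 when naive replicates 1, 2 or 3 were left out in turn. It was 0.06 when immunized replicate 3, and 0.14 when immunized replicate 5, was left out. With array weights, which gave naive replicate 1 the least weight (0.27) and immunized replicate 1 the most (3.98), 6 of the 33 genes were called higher by limma. They were Slc25a37, Epb42, Xk, Nfe2, Tal1 and Hemgn, and 5900 of all 18193 genes were called in that setting.

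**Figure D2:**
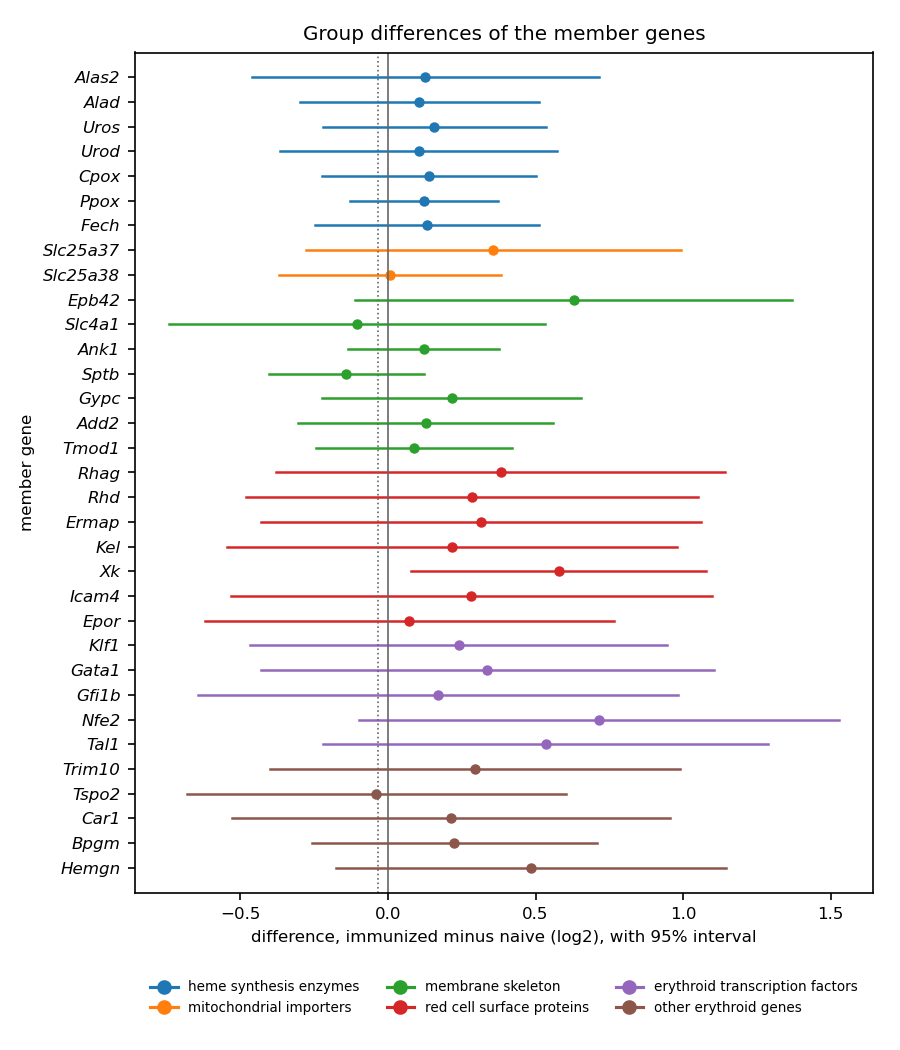
Difference between the group means (immunized minus naive, log2) of each measured gene, as a point with its 95% interval from limma, coloured by role; the dotted line is the median of all genes (-0.04). The points lie between -0.14 and 0.72, and only the interval of Xk (0.08 to 1.08) leaves out 0, before adjustment over all genes.

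The heme synthesis enzymes showed small differences between the groups. All 7 differences lay between 0.10 and 0.16, with adjusted p in limma from 0.482 to 0.773. Alas2, the erythroid form of the first and rate-limiting enzyme, lay at 0.36, -0.55 and -0.11 in naive replicates 1 to 3 and at 0.15, -0.26, 0.59, -0.46 and 0.11 in immunized replicates 1 to 5. Naive replicate 2 and immunized replicate 4 were lowest, and the spread within groups (SD 0.46, n = 3 naive, and 0.40, n = 5 immunized) exceeded the difference of 0.13 ± 0.26 (SE). Urod, the uroporphyrinogen decarboxylase of the fifth step, lay at 0.34, -0.24 and -0.15 in naive and at 0.09, -0.33, 0.57, -0.10 and 0.22 in immunized samples. Naive replicate 1 was thus higher than every immunized sample but replicate 3. Fech, ferrochelatase, which inserts iron into the ring, lay at 0.15, -0.23 and -0.12 and at 0.09, -0.31, 0.44, -0.11 and 0.21. Its difference was 0.13 ± 0.17 (adjusted p = 0.627 in limma). Ppox, the oxidase of the last step but one, varied least among the enzymes. It ranged from -0.20 in naive replicate 3 to 0.31 in immunized replicate 3, and its within-group SD of 0.15 stood close to the median of all genes. These values are means of 3 probe sets that did not vary alike, at 0.45, -0.51 and 0.31 in naive replicate 1. Over the 8 samples the probe sets had SDs of 0.25, 0.25 and 0.29, beside 0.16 for their mean. The remaining enzymes Alad, Uros and Cpox had within-group SDs of 0.28, 0.26 and 0.25. Of the 7 enzymes 6 were highest in immunized replicate 3 and 1, Cpox, in immunized replicate 5.

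The mitochondrial importers that feed the chain followed the same samples. Slc25a37, mitoferrin 1, which brings iron into the mitochondrion, lay at 0.29, -0.65 and -0.30 in naive and at 0.22, -0.22, 0.77, -0.37 and 0.28 in immunized samples. Its difference was 0.36 ± 0.28 (adjusted p = 0.416 in limma), and was 0.61 without naive replicate 1, 0.14 without naive replicate 2 and 0.20 without immunized replicate 3. Slc25a38, the glycine carrier needed for the first step, differed by 0.01 ± 0.17, with an interval from -0.37 to 0.38. It lay at 0.26, -0.09 and -0.05 and at 0.12, -0.18, 0.49, -0.23 and 0.05, so that the highest naive sample exceeded 4 of the 5 immunized samples.

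Genes of the membrane skeleton varied in pattern, and 6 of the 7 were highest in immunized replicate 3. Epb42, protein 4.2, which ties the anion exchanger to ankyrin, lay at -0.12, -0.22 and -0.01 in naive and at 0.63, -0.12, 1.51, -0.02 and 0.56 in immunized samples. The naive samples were close to each other (SD 0.10) and the immunized samples far apart (SD 0.65), with immunized replicates 2 and 4 among the naive values. The difference was 0.63 ± 0.33 (adjusted p = 0.223 in limma), and both probe sets of Epb42 gave it alike (0.61 and 0.65). Without immunized replicate 3 it was 0.38. Slc4a1, the anion exchanger band 3, lay at 0.30, -0.19 and 0.10 in naive and at 0.10, -0.41, 0.84, -0.33 and -0.40 in immunized samples. That mean hides disagreement among its 3 probe sets, whose differences were 0.15, 0.17 and -0.63. The probe set with -0.63 lay at -1.59 in immunized replicate 5, where the other pair gave 0.19 and 0.21, and reached 0.77 in naive replicate 3, where they gave -0.19 and -0.29. Add2, beta adducin, had 5 probe sets with differences from -0.21 to 0.47. Ank1, ankyrin 1, which anchors the skeleton to the membrane, varied little as the mean of 4 probe sets. This mean ran from -0.14 in naive replicate 3 to 0.36 in immunized replicate 3. Over the 8 samples the probe sets of Ank1 had SDs of 0.26, 0.14, 0.26 and 0.24, beside 0.16 for their mean. Sptb, beta spectrin, differed by -0.14 ± 0.12 (adjusted p = 0.438 in limma). Its 2 probe sets did not vary alike, 1 being highest in immunized replicate 3 (0.75) and naive replicate 1 (0.67) and the other in naive replicate 2 (0.44). Tmod1, tropomodulin 1, which caps actin filaments and is also made in muscle, was chosen after its values were seen. It was lowest in naive replicate 1 (-0.26) and high in naive replicate 2 (0.27), the reverse of most other genes here.

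Red cell surface proteins, grouped here with the receptor Epor of erythroid precursors, varied widely, and all 7 were highest in immunized replicate 3. The within-group SD of the 7 genes lay between 0.35 and 0.59, beside a median of 0.15 over all genes. Rhag, the Rh-associated glycoprotein, lay at 0.25, -0.55 and -0.34 in naive and at 0.34, -0.61, 0.95, -0.25 and 0.40 in immunized samples, a difference of 0.38 ± 0.34 (adjusted p = 0.469 in limma). Immunized replicate 2 was the lowest of all 8 samples and immunized replicate 3 the highest, so the immunized range enclosed the naive one. Icam4, an adhesion molecule of the red cell that carries the LW blood group, had the widest within-group spread of the 33 genes (SD 0.59). It lay at 0.53, -0.48 and -0.23 and at 0.23, -0.40, 1.14, -0.30 and 0.46. Epor, the erythropoietin receptor, lay at 0.63, -0.17 and -0.19 in naive and at 0.17, -0.37, 0.78, -0.33 and 0.56 in immunized samples. Naive replicate 1 came next to immunized replicate 3, and the difference was 0.07 ± 0.31, with an interval from -0.62 to 0.76.

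Xk was the gene with the smallest p of the set. Its product is a membrane protein linked to the Kell glycoprotein and is also made in muscle and nerve. Xk lay at -0.67, -0.18 and -0.05 in naive and at 0.40, 0.05, 0.85, -0.08 and 0.19 in immunized samples. Naive replicate 1, high for most genes here, was the lowest sample for Xk, and immunized replicate 4 lay among the naive samples. The difference was 0.58 ± 0.22 and did not pass (unadjusted p = 0.0279, adjusted p = 0.116 in limma), and was 0.39 without naive replicate 1. The 2 probe sets of Xk differed by 0.82 and 0.33. That with 0.82 lay at -1.09 in naive replicate 1, and at -0.25 and -0.08 in naive replicates 2 and 3. Kel, its partner in the membrane, lay at 0.51 in naive replicate 1 and differed by 0.22 ± 0.34.

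The 5 erythroid transcription factors were all highest in immunized replicate 3. Their median was 0.92 there and 0.65 in immunized replicate 5, 0.40 in naive replicate 1, and between -0.48 and 0.22 in the other samples. Klf1, the activator of beta globin, lay at 0.40, -0.48 and -0.20 in naive and at 0.20, -0.48, 0.86, -0.28 and 0.43 in immunized samples. Gata1, the main factor of the lineage, lay at 0.49, -0.42 and -0.35 and at 0.30, -0.38, 0.92, -0.30 and 0.67. In both, naive replicate 1 lay within the immunized range and naive replicates 2 and 3 close to immunized replicates 2 and 4. Tal1, which acts in a complex with GATA1, lay at 0.24, -0.78 and -0.40 and at 0.40, -0.41, 0.99, -0.24 and 0.38. Nfe2, a factor of erythroid cells and megakaryocytes, had the largest difference of the set. It lay at 0.21, -0.82 and -0.76 in naive and at 0.22, -0.43, 0.95, -0.21 and 0.77 in immunized samples, a difference of 0.72 ± 0.36 (adjusted p = 0.208 in limma). All immunized samples lay above naive replicates 2 and 3, and naive replicate 1 lay above 2 of the 5.

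The other erythroid genes have varied roles in the maturing cell. Hemgn, a nuclear protein of erythroid precursors, lay at 0.13, -0.40 and -0.34 in naive and at 0.52, -0.40, 0.96, -0.13 and 0.47 in immunized samples (difference 0.49 ± 0.29, adjusted p = 0.289 in limma). Car1, carbonic anhydrase 1, was highest in immunized replicate 5, and lay at 0.22, -0.22 and -0.25 and at 0.25, -0.59, 0.64, -0.47 and 0.80. Bpgm, which makes the phosphate that loosens oxygen from hemoglobin, varied less, at 0.01, -0.47 and 0.03 and at 0.19, -0.05, 0.65, -0.33 and -0.04. Tspo2, a membrane protein of maturing erythroblasts, was the single gene highest in naive replicate 1 (0.82). The 13 genes not given by sample under the rule, among them Sptb, Tmod1, Kel and Tspo2, had differences from -0.14 to 0.31 and adjusted p from 0.438 to 0.938 in limma, and 10 of them were highest in immunized replicate 3.

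**Figure D3:**
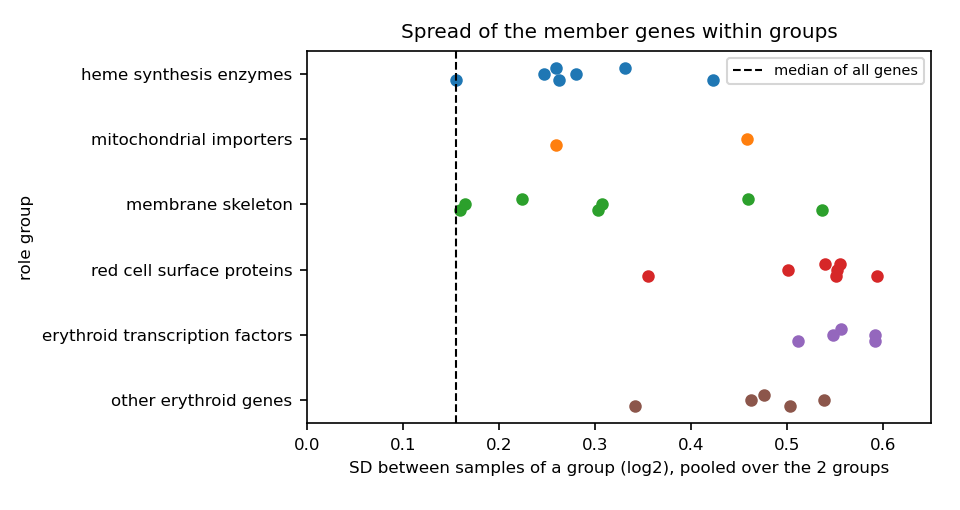
Standard deviation between samples of a group, pooled over the 2 groups (log2), for each measured gene, by role; the dashed line is the median of all genes (0.15). Transcription factors lie between 0.51 and 0.59 and heme synthesis enzymes between 0.15 and 0.42. Each gene is the mean of its probe sets, whose number differs between genes, and averaging can lower the SD.

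The spread within groups differed by role, given here as a description. Each gene's value is the mean of its probe sets, and averaging probe sets that do not vary alike lowers the SD. Each transcription factor and Alas2 had 1 probe set, whereas Ppox had 3. How far the number of probe sets sets the contrast between roles was not tested. In the transcription factors it stood between percentiles 97.1 and 98.7 of all genes and in the red cell surface proteins between percentiles 89.8 and 98.7. For the heme synthesis enzymes it ran from near the median for Ppox to percentile 94.0 for Alas2. Over the set, 32 of 33 genes lay above the median of all genes and 18 above its 95th percentile. In 28 of the 33 genes the SD was larger among the 5 immunized than among the 3 naive samples. This count was not made over all genes, so it cannot be read as particular to this set. The genes vary together, and immunized replicate 3 was the highest sample for 29 of them.

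Globins are the main product of late erythroid cells. Of 6 genes, 4 were highest in naive replicate 1, as were 24.0% of all genes. Among all genes 4.46% were called higher, and 9.39% lay higher in every immunized sample. Of these 6 globin genes with a probe set of their own 1 rose, Hba-a2, one of the adult alpha globin genes, by 0.54 ± 0.13 (adjusted p = 0.0391 in limma). It lay at -0.41, -0.33 and -0.26 in naive and at 0.28, -0.02, 0.55, 0.02 and 0.19 in immunized samples, with no overlap. Probe sets of near-identical globin genes can bind each other's transcripts. The 4 probe sets that each name several alpha or several beta globin genes stayed between -0.14 and 0.11 on every array, with differences from -0.01 to 0.03 (smallest adjusted p = 0.828 in limma). The other globin genes measured alone did not pass, the adult gene Hbb-b2 differing by 0.08 ± 0.11 and Hba-a1 by -0.03 ± 0.13. The embryonic genes Hba-x, Hbb-bh1 and Hbb-y differed by -0.13 ± 0.09, -0.03 ± 0.10 and 0.02 ± 0.07.

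How many genes passed moved with each sample left out, over all genes as in these lists. Of 147 measured genes of all these lists, globins included, 23 were called, but leaving out naive replicates 1, 2 or 3 in turn left 7, 0 and 0 calls. Over all 18193 genes the calls numbered 1663, and 374, 21 and 176 in those fits. Leaving out immunized replicates 1, 2, 3, 4 or 5 gave 0, 46, 13, 16 and 4 calls in the lists and 148, 3003, 758, 868 and 394 over all genes (limma).

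Of 20 other measured genes of heme and iron handling 1 was called higher, a share near the 4.46% of all genes. It was Ireb2, which encodes an iron regulatory protein that acts on ferritin and transferrin receptor mRNA. Ireb2 rose by 0.48 ± 0.10 (adjusted p = 0.0285 in limma), and 0 genes fell. Its values were -0.62, -0.26 and -0.32 in naive and 0.17, -0.04, 0.09, 0.04 and 0.14 in immunized samples. Before adjustment 5 of the 20 were higher and 1 lower at p under 0.05 in limma, against 12.9% and 18.2% of all genes. The lower gene was Aco1, another iron regulatory protein gene (-0.18 ± 0.07). Of the 20 genes 3 lay higher in every immunized sample and 1, Aco1, lower, against 9.39% and 14% of all genes. Tfrc, the transferrin receptor, through which erythroblasts and other dividing cells take up iron, lay at -0.89, -0.88 and -0.13 and at 0.55, -0.02, 1.38, -0.03 and 0.29. The groups did not overlap, but the difference of 1.07 ± 0.33 did not pass (adjusted p = 0.0701). Hebp1, a heme binding protein, differed by 0.53 ± 0.18 (adjusted p = 0.0902 in limma).

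Of 26 further erythroid genes outside the set, 25 lay above 0 in immunized replicate 3. Their median was 0.62 in immunized replicate 3 and between -0.20 and 0.23 in the others, and 19 were highest in immunized replicate 3. In limma 0 of the 26 rose and 1 fell, beside 4.46% and 4.68% of all genes. The gene that fell was Ldb1, a partner of GATA1 and TAL1, by 0.50 ± 0.10 on the log2 scale (adjusted p = 0.0277 in limma). Ldb1 lay at 0.76, 0.38 and 0.33 in naive samples and between -0.03 and 0.00 in all immunized samples. Tmod3 (0.28 ± 0.08) and Aqp1 (0.42 ± 0.12), a tropomodulin and the water channel of red cells, did not pass, with groups that did not overlap. Of the 26 genes 2 lay higher in every immunized sample and 2 lower, against 9.39% and 14% of all genes.

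Markers of other marrow cells and of dividing cells were high in some of the same samples. Over all genes 4.46% were called higher and 12.9% were higher before adjustment, and immunized replicate 3 was highest for 16.0%. All 10 megakaryocyte markers were highest in immunized replicate 3 (median 0.99), and their median was 0.66 in immunized replicate 5 and 0.36 in naive replicate 1. It ranged from -0.35 to 0.36 in naive and from -0.25 to 0.99 in immunized samples, and 0 of the 10 passed in limma (1 was higher at an unadjusted p under 0.05), the largest moderated t belonging to Clec1b (0.88 ± 0.37), Ppbp (0.41 ± 0.26) and Gp6 (0.37 ± 0.25). Of 20 cell cycle genes 18 were highest in immunized replicate 3, with medians from -0.36 to 0.16 in naive and from -0.30 to 0.81 in immunized samples. Of these 20 genes 1 was called, Mki67, the Ki-67 antigen of dividing cells, which rose by 0.95 ± 0.23. Pcna (0.52 ± 0.19) and Tyms (0.37 ± 0.13) did not pass. Bone marrow progenitor markers ranged from -0.51 to 0.04 in naive and from -0.16 to 0.58 in immunized samples by median, and 6 of 9 were highest in immunized replicate 3. No progenitor marker passed limma's test and 6 were higher at an unadjusted p under 0.05, led by Kit (0.60 ± 0.18), Mpo (0.58 ± 0.20) and Prtn3 (0.76 ± 0.27).

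Neutrophil markers were highest in immunized replicate 5 for 7 of 9 genes, as were 11.4% of all genes. Their medians ran from -0.63 to -0.06 in naive and from -0.07 to 0.51 in immunized samples. Beside the counts of this paragraph, 4.46% of all genes were called higher and 4.68% lower. Of the neutrophil markers 3 rose: Cxcr2 (1.54 ± 0.34), Mmp8 (1.47 ± 0.35) and S100a9 (0.40 ± 0.09). Of 9 markers of the macrophages that nurse erythroblasts 3 rose and 1 fell, Dnase2a (-0.44 ± 0.10), whose enzyme digests the expelled nuclei. Those that rose were Itgam (1.81 ± 0.29), Adgre1 (1.45 ± 0.26) and Vcam1 (0.85 ± 0.17), which other macrophages and inflamed vessels also express. Of 12 mast cell and eosinophil markers, lineages that also use GATA1, 4 rose and 2 fell. Immunized replicate 3 was highest for 7 of the 12, as it was for 16.0% of all genes. Siglecf (1.59 ± 0.27), Hdc (1.37 ± 0.26), Ccr3 (1.27 ± 0.32) and Prg2 (0.87 ± 0.21) rose, and the mast cell proteases Tpsab1 (-0.54 ± 0.11) and Cma1 (-0.61 ± 0.14) fell.

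**Figure D4:**
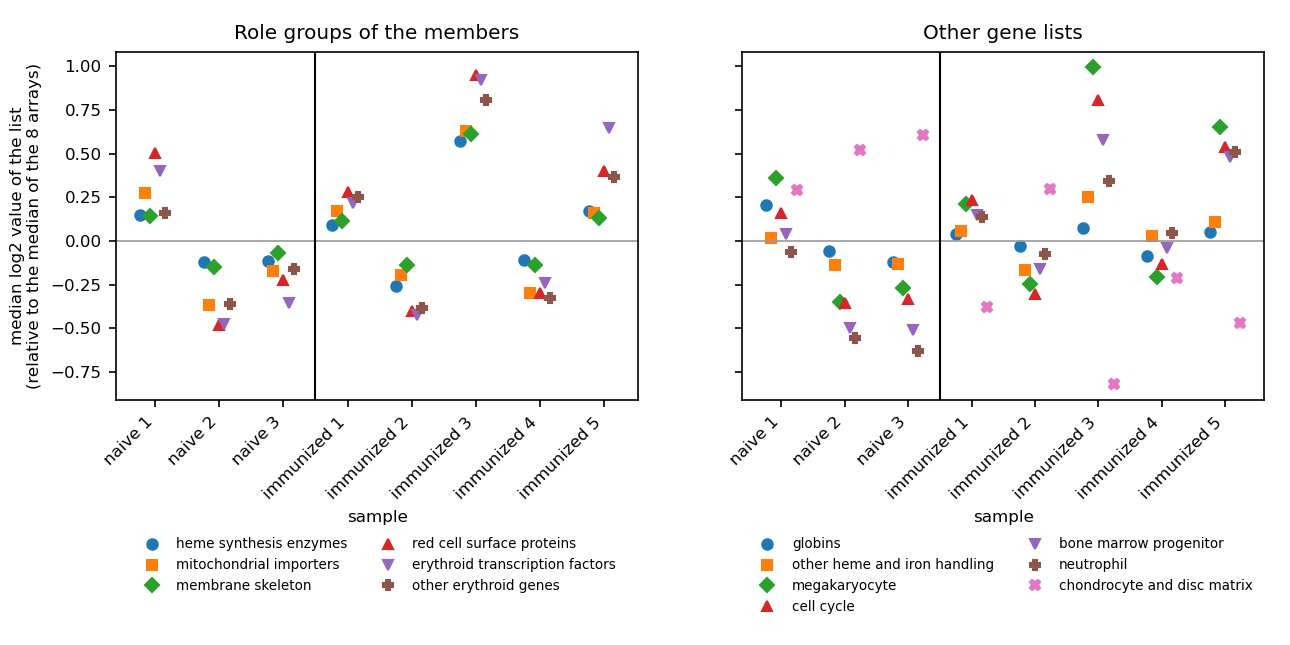
Median log2 value of each gene list (symbols) in each of the 8 samples, for the role groups (left) and for other lists (right). Probe set values are relative to their median over the 8 arrays and were averaged by gene. The black line parts naive from immunized samples. Megakaryocyte (0.99) and cell cycle (0.81) medians peak in immunized replicate 3 with the erythroid genes, where the chondrocyte list is lowest (-0.82).

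Genes of cartilage ran the other way in part. The chondrocyte median was 0.29, 0.52 and 0.61 in naive and -0.38, 0.30, -0.82, -0.21 and -0.47 in immunized samples, so the sample with the highest erythroid values had the lowest cartilage values. Naive replicate 1, with high erythroid values, was at 0.29. Over all genes 4.68% were called lower. Of 10 chondrocyte markers 4 fell, Col9a1 (-1.75 ± 0.44), Col11a2 (-1.26 ± 0.27), Snorc (-1.30 ± 0.29) and Sox9 (-0.83 ± 0.19). Of 9 nucleus pulposus and notochord markers 1 fell, Krt19 (-2.01 ± 0.36), while Krt18 (-1.30 ± 0.46) and Car3 (-0.61 ± 0.18) did not pass. Of 7 bone markers 1 fell, Alpl (-0.68 ± 0.16), while Sp7 (-0.58 ± 0.18) and Dmp1 (-0.51 ± 0.28) did not pass. A single call among 9 or 7 markers describes that gene and not its list. The part of these other cell types and of dividing cells in the erythroid values was not tested.

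From the spacing of the deposited numbers, a rough signal class can be read for the array where a probe set was dimmest. This class was 8 or more on the log2 scale for 37 of the 57 probe sets of these genes (64.9%, against 32.6% of all probe sets), 4 to 8 for 20 and below 4 for 0. Both probe sets of Xk were in the class 4 to 8, as was the probe set of Slc4a1 with a difference of -0.63. The disc markers Acan, Col2a1, Sox9, Krt19 and Krt8 had 8 of 9 probe sets at 8 or more in the same way.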

How the data were processed

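Lumbar disc RNA of 3 naive and 5 immunized samples was hybridized to Affymetrix arrays. The authors deposited log2 values, 1 for each probe set on each array, from RMA (per the submitters' processing notes), with version and log base not given in the sources used here. Each probe set's 8 values have a median within 5e-07 of 0, a centring no label records. It leaves differences intact but removes levels, of which only the rough signal class of a probe set could be read. That class describes the signal of a probe set, so genes cannot be compared in level by it. Precision is limited by how few arrays there are.

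Symbols came from the platform annotation, updated by gene identifier through RefSeq (GRCm38.p6): 34958 probe sets named 1 gene, 932 several and 9211 none. The 64 control probe sets were left out. Each of 18193 genes was the mean of the probe sets naming it alone. Groups were compared in limma 3.58.1 (R 4.3.3, lmFit, then eBayes), two-sided and without covariates. The p-values were adjusted by Benjamini-Hochberg over the 18193 genes, with a threshold of 0.05. This fit was also run on simulated data whose genes vary independently of each other, which the genes here do not. That run therefore does not bear on how the calls depend on single samples. Errors beside differences are limma's SE, for 5 immunized against 3 naive samples, and intervals are 95%.

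Members, lists and rules were chosen with earlier results of these data known. Values by sample are given for members with an unadjusted p under 0.05, the 2 with the largest and the 1 with the smallest SD over the 8 samples in each role group, and Alas2, Fech, Klf1, Gata1, Epor and Slc4a1. Probe sets are described where their differences span over 0.5, and up to 3 genes with the largest moderated t are named per other list, with all globins. Genes outside this rule (Tmod1, Kel, Tspo2, Alad, Uros, Cpox, Sptb, Aco1 and further called genes of small lists) were named after their values were seen. Other settings are in the closing section.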

Additional observations from a re-analysis of the deposited data

Results flagged for a closer look

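Among the immunized samples, Sptb, the beta spectrin gene, had 1 value far from the others, 0.34 in immunized replicate 3. The other immunized values lay between -0.14 and -0.0034. Its gap to the next sample was 0.715 of the range of the 5 samples, just past the limit of 0.71. This was 1 such case in 45 sets of values examined (the 33 genes, 6 role medians and 6 globins), and chance gives about 1 in 20.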

How the results depend on the processing

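No member gene was called in either direction in limma under quantile normalization, median centring, either omission of probe sets, probe sets tested singly, the trended and robust model, the replicate block, the fit without the 2 samples of joined number, the omission of any 1 sample (0 to 0) or an adjusted p under 0.10. With array weights 6 were called higher. The fit without the 2 samples of joined number called 0 of all 18193 genes. Its 0 for the members and for the other lists was therefore bound to result. Quantile normalization called 910 of all genes and an adjusted p under 0.10 called 3783, against 1663 in the main fit. The median difference of the members, 0.21, is smaller than its spread between replicates (SD 0.39). It stayed above 0 but was 0.38 with array weights, 0.14 after quantile normalization, 0.10 without both samples with joined numbers and 0.06 to 0.36 with 1 sample left out. Of the 147 measured genes of the other lists 23 were called, but 11 after quantile normalization, 87 with array weights, 48 at an adjusted p under 0.10, 0 with the replicate block, 0 without both samples with joined numbers (limma in each) and 0 to 46 with 1 sample left out. Deviations of same-numbered samples from their group means had correlations of -0.05, 0.24 and -0.10 over genes for numbers 1 to 3. Those of differently numbered samples ran from -0.38 to 0.33. So few values cannot decide whether the numbers pair the samples, and the main fit did not pair them. With the block 7 genes were called over all genes, against 1663 without it. Immunized replicates 4 and 5 have no naive sample of their number, so the block fit drew its differences from numbers 1 to 3 only. Its counts thus rest on fewer samples and do not measure an effect of pairing. The difference of Slc4a1 turned to 0.075 with array weights and 0.11 with the replicate block. Without both samples with joined numbers Slc25a38 turned to -0.056 and Epor to -0.070. With 1 sample left out, Slc4a1 ranged from -0.33 to 0.0099, Slc25a38 from -0.10 to 0.12, Epor from -0.083 to 0.34, Alas2 from -0.10 to 0.36 and Urod from -0.016 to 0.28. None of these was called in any setting, and the cause was not tested.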
